A study of Mus musculus with 6 samples.

Results

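The interferon-inducible p200 genes are a family of related genes that lie side by side on mouse chromosome 1. Of the 54532 genes in the deposited tables, 8 were chosen by gene name: Ifi203, Ifi204, Ifi205, Ifi207, Ifi209, Ifi211, Ifi213 and Mndal. Their RNA was measured by bulk sequencing in RAW264.7, a mouse macrophage-like line grown in culture. The labels give 3 libraries of genotype WT with no shRNA tag, called control here, and 3 of genotype ERMAP Knockdown with an shRNA (short hairpin RNA) tag, called the labelled libraries. The treatment text names an ERMAP shRNA lentivirus for every sample, no label describes a control hairpin, and the labels do not say whether libraries of a group came from separate cultures, so p-values here speak of the spread among these 6 libraries alone, and that spread may be technical. The series asks which genes differ once ERMAP, a membrane protein of the butyrophilin family, is knocked down.

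Proteins of the p200 family carry a HIN domain, which binds DNA, and most also carry a pyrin domain, which binds other pyrin domains. Type I interferon raises many of these genes through a complex that includes Stat2 and Irf9 and binds the interferon-stimulated response element, a DNA motif. Ifi204 is usually set beside human IFI16 as a sensor of DNA upstream of Sting, and the related gene Aim2 encodes the DNA sensor of an inflammasome. Other p200 proteins are known for binding transcription factors and cell cycle proteins such as Rb1 and the Id proteins.

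Promoter sequences are shown here because the core of the response element stood in members that rose and in members that were not called. The promoters run from 250 bases before to 50 bases after a transcription start and come from RefSeq on GRCm38.p6, the assembly that mm10 also names. They are letters of that reference, and whether RAW264.7 carries the same letters or copies was not examined. Of the 8 members, 7 had an entry. Each line gives bases 5′ to 3′ on the gene's strand, and capitals mark the closest match to the core of the response element.
Ifi207: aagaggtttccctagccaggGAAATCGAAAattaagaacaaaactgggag
Ifi203: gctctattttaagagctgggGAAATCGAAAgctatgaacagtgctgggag
Mndal: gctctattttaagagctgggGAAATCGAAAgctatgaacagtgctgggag
Ifi211: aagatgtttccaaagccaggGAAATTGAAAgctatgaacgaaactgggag
Ifi205: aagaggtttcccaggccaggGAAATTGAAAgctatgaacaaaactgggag
Ifi213: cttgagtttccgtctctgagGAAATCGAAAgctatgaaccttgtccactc
Ifi209: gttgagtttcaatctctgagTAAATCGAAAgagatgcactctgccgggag

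These windows lie at chr1:173741821-173741870 for Ifi207, chr1:173942498-173942547 for Ifi203, chr1:173880194-173880243 for Mndal and chr1:173913054-173913103 for Ifi211, all on the minus strand. The others lie at chr1:174031860-174031909 for Ifi205 and chr1:173599316-173599365 for Ifi213, on the minus strand, and at chr1:173630760-173630809 for Ifi209, on the plus strand. The Ifi203 and Mndal windows share 50 of 50 bases. The Ifi207 window shares 42 of 50 bases with that of Ifi211 and 25 with that of Ifi213. The RefSeq starts of Mndal lie inside the span that the deposited table gives for it. On the minus strand that span begins at 173942491, inside the promoter (173942443 to 173942742) whose window is printed for Ifi203. The outermost start of Mndal as counted therefore lies at that promoter and not at the window printed for Mndal.

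Searched on both strands, the core (GAAA, any 2 bases, then GAAA) occurred in at least 1 promoter of 6 of the 7 members with an entry and of 3.99% of all 27025 genes with an entry (3.44% of their 32851 promoters, all of that length). Ifi205 held a further copy on the opposite strand after its start, and a second start of Mndal held one on the opposite strand before it. A second start of Ifi203 held none. Its promoter (173942623 to 173942922) is the outer one of the gene, whose deposited span begins at 173942672 on the minus strand. The window printed for Ifi203 therefore belongs to a start further in, and the outermost start as counted lacks the core. Ifi209 lacked the core: counted from the first base of GAAATCGAAA, its closest stretch differs by G1T. The 10 bases GAAATCGAAA are one of the forms of the core and were taken from the Ifi207 promoter after the sequences had been seen. These 10 bases occurred in 4 members, Ifi203, Ifi207, Ifi213 and Mndal. They occurred in the promoters of 16 genes of 27025, and 7 of the 16 belong to the family, counting Ifi206, Ifi208 and Ifi214, which are not among the 8. A separate motif, TTCNNNGAA, reads the same on both strands. It occurred in 0 of these 7 members and in 9.55% of all genes with an entry (8.30% of promoters). A match describes letters and is not evidence of a binding site.

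The labels' check comes first. Ermap had 12, 12 and 3 counts in control against 10, 21 and 14 with the label, with a log2 fold change of 0.81 (SE 0.52, edgeR adjusted p = 0.929), so no decrease was seen behind the label, and every direction here is that of the labelled libraries against control. Library totals ran from 13447021 to 16602734 counts. The macrophage markers Cd68, Csf1r, Lyz2, Spi1, Cd14, Itgam, Fcgr3 and Adgre1 were expressed, at a summed 7081 to 7359 CPM in control and 7204 to 7378 CPM with the label, and Mertk had 0 counts. Summed levels of the B cell, T cell, neutrophil, fibroblast, epithelial and erythroid lists were at most 0.399 CPM (counts scaled to library size) in any library. Those of dendritic cells lay at 1.98 to 2.70 CPM in control and 1.46 to 2.02 CPM in the labelled group. Control replicate 1 stood apart: mitochondrial counts made up 3.69% of it, against 1.71% to 2.18% elsewhere, and it read AT-rich transcripts higher than the other controls (median log2 difference 0.54 in genes below 43.6% GC and -0.52 in those above 55.2%). All 8 members fall among the former, at 36.1% to 43.4% GC. In the 5 members with enough control counts for a ratio, control replicate 1 lay 1.47 to 1.82 times above the mean of the other controls. Deviations of log2 CPM from the group mean in control replicate 1 correlated at 0.34 with those of labelled replicate 2, the highest of any such pair. Labelled replicate 2 held the 2.18% of mitochondrial counts and was the highest labelled library in every member but Ifi211. Whether it also read AT-rich transcripts higher was not tested.

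Ifi207 and Ifi203 rose in the labelled libraries, by 2.58-fold and 2.92-fold. Mndal, Ifi204 and Ifi211 were also above control in every library but did not pass the test. Ifi213 had a lower mean that did not pass, and Ifi209 and Ifi205 were nearly silent. Levels below are CPM scaled by TMM factors, fold changes are log2 values from edgeR's quasi-likelihood test, and a gene was called at a Benjamini-Hochberg adjusted p under 0.05 over all 12491 genes tested. Of the 8 members, 6 had enough counts to be tested. Of the 6, 2 were called higher and 0 lower, where 1.01% of all tested genes were called higher and 0.136% lower. All labelled libraries lay above all controls in 5 of the 6, against 7.74% of all tested genes, and the same number had an unadjusted p under 0.05 on the higher side, against 3.71% (3.04% on the lower). In bulk RNA, fewer expressing cells and less RNA per cell cannot be told apart.

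**Figure D1:**
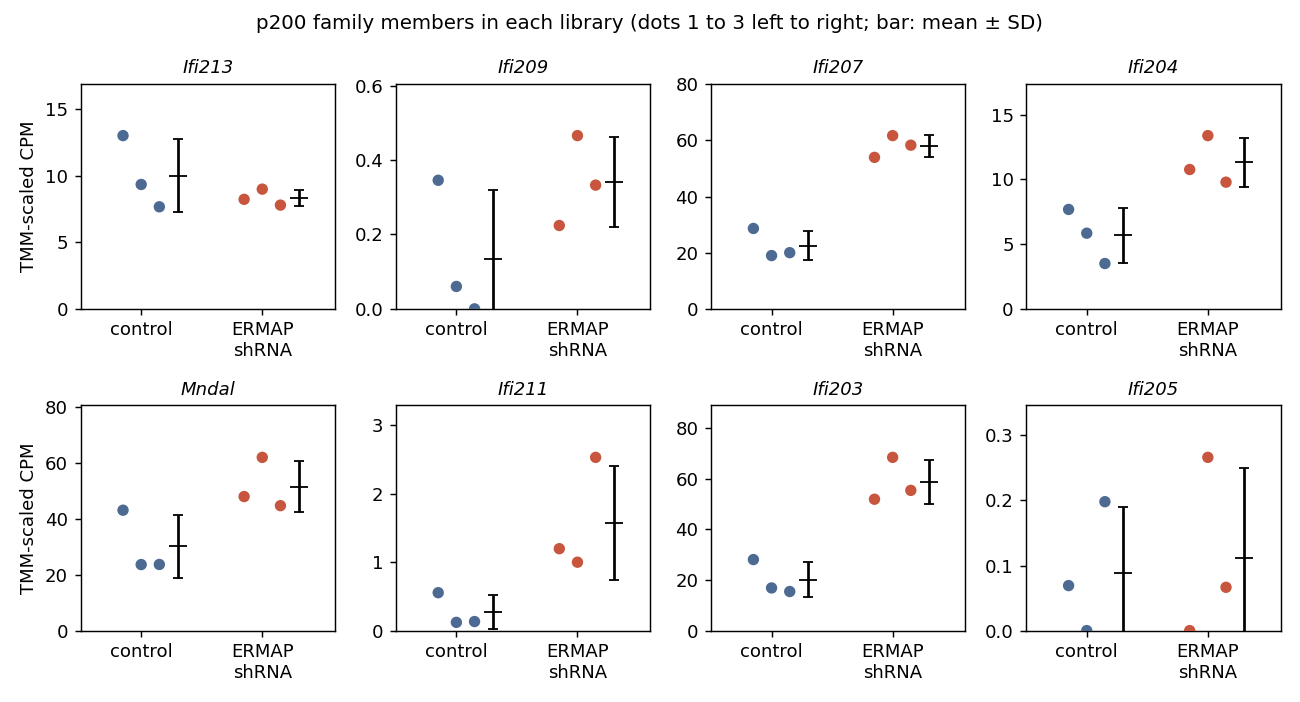
Level of each p200 member (TMM-scaled CPM, linear axis from 0, scaled per gene) in the 3 control (blue) and 3 ERMAP shRNA libraries (red), with mean and SD in black, cut off at 0. Ifi207, Ifi204, Mndal, Ifi211 and Ifi203 do not overlap between groups, while Ifi213, Ifi209 and Ifi205 do.

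Ifi207 encodes a pyrin and HIN domain protein and had the clearest difference. The gene (ENSMUSG00000073490) is protein coding and lies at chr1:173723427-173741747 in mm10, minus strand. It had 414, 315 and 303 counts for control and 722, 927 and 876 for the labelled libraries. Scaled, controls ran from 19.0 to 28.6 CPM and the labelled libraries read 53.9, 61.7 and 58.3 CPM. The lowest labelled library lay well above control replicate 1, the highest control. Means were 22.5 ± 5.30 and 58.0 ± 3.88 CPM (SD, n = 3 each), a log2 fold change of 1.36 with an SE of 0.17 (95% interval 0.97 to 1.76, edgeR adjusted p = 0.0074). The call was lost without control replicate 3 (edgeR adjusted p = 0.0549) and without labelled replicate 2 (0.0583) or 3 (0.0537), with log2 values of 1.29, 1.31 and 1.36. Without control replicate 1 the value was 1.57.

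Ifi203 encodes a nuclear p200 protein and is the other member that rose. It (ENSMUSG00000039997) is protein coding and lies at chr1:173920407-173942672, minus strand. Counts were 406, 280 and 234 in control and 695, 1029 and 833 in the labelled group. Levels of 28.1, 16.9 and 15.4 CPM in control compare with 51.9, 68.5 and 55.4 CPM. The groups did not overlap, and labelled replicate 2 was the highest library. Means were 20.1 ± 6.92 and 58.6 ± 8.72 CPM (SD, n = 3 each), with a log2 fold change of 1.54 (SE 0.24, 95% interval 1.00 to 2.09, edgeR adjusted p = 0.0232). The call was lost without control replicate 2 or 3 and without labelled replicate 1, 2 or 3 (edgeR adjusted p from 0.0768 to 0.122), at log2 values from 1.39 to 1.63. Without control replicate 1 the value was 1.85 (edgeR adjusted p = 1.71e-10).

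Mndal, named for its likeness to the human myeloid nuclear differentiation antigen, was the most abundant member per length in control. Its gene (ENSMUSG00000090272), protein coding and on the minus strand, is annotated from 173849126 to 173942491 on chromosome 1. Counts were 624, 393 and 359 in control and 643, 933 and 673 in the labelled libraries. On the CPM scale control replicate 1, at 43.2, came close to the lowest labelled library, at 44.8, while control replicates 2 and 3 both read 23.7 and labelled replicates 1 and 2 read 48.0 and 62.1. On the log2 scale the difference was 0.78 with an SE of 0.25 (95% interval 0.19 to 1.36, edgeR adjusted p = 0.429). It was 1.12 without control replicate 1, and then called (edgeR adjusted p = 3.84e-06).

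Ifi204, the member usually compared with human IFI16, gave a similar picture at a lower level. It (ENSMUSG00000073489) is protein coding and lies at chr1:173747293-173766943, minus strand. Counts were 111, 97 and 53 in control against 144, 201 and 147. The 7.68, 5.84 and 3.50 CPM in control lay below the 10.8, 13.4 and 9.78 CPM of the labelled group. On the log2 scale the difference was 1.00 with an SE of 0.28 (95% interval 0.35 to 1.64, edgeR adjusted p = 0.282). DESeq2, which called 1.62% of tested genes higher, called it (log2 0.99, adjusted p = 0.0398), as did edgeR without control replicate 1 (1.26, adjusted p = 0.000289).

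Ifi211, close in sequence to Ifi205, had the largest fitted change and the fewest counts of the tested members. It (ENSMUSG00000026536) is protein coding, at chr1:173896345-173913046 on the minus strand, within the span of Mndal. There were 8, 2 and 2 counts in control and 16, 15 and 38 in the labelled libraries, or 0.553, 0.120 and 0.132 CPM against 1.20, 0.998 and 2.53 CPM. Labelled replicate 3 held more than the other labelled libraries together. The log2 fold change of 2.56 had an SE of 0.65 (95% interval 1.06 to 4.05, edgeR adjusted p = 0.206), and leaving out 1 library gave 2.03 (labelled replicate 3) to 3.56 (control replicate 1), where it was called (adjusted p = 0.00159). DESeq2 called it too (log2 2.57, adjusted p = 0.0274).

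Ifi213, listed in RefSeq also as Pydc4, was the only tested member with a negative value. Its gene (ENSMUSG00000073491), protein coding, lies at chr1:173566283-173599274, minus strand. Counts of 188, 155 and 116 in control compare with 110, 135 and 117. Levels were 13.0, 9.33 and 7.66 CPM in control and 8.22, 8.98 and 7.79 CPM with the label, which lies inside the range of the controls. On the log2 scale the difference was -0.26 with an SE of 0.21 (95% interval -0.75 to 0.23, edgeR adjusted p = 0.937), and -0.04 without control replicate 1. That interval does not meet those of Ifi207 or Ifi203, whose promoters also hold GAAATCGAAA. The difference between members was not tested.

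Ifi209 and Ifi205 had too few counts to pass the filter. Ifi209, listed in RefSeq also as Pyhin1 (ENSMUSG00000043263, chr1:173630917-173647928, plus strand), had 5, 1 and 0 control counts and 3, 7 and 5 labelled counts. Ifi205 (ENSMUSG00000054203, chr1:174011998-174031810, minus strand) had 1, 0 and 3 control counts and 0, 4 and 1 labelled counts. Both are protein coding. The ratio of summed counts was 2.66 for Ifi209 (95% exact binomial interval 0.975 to 8.37) and 1.33 for Ifi205 (0.286 to 6.70), and these intervals cover counting error only. Fitted without the filter, their log2 values were 1.33 (SE 1.00, edgeR adjusted p = 0.825) and 0.34 (SE 1.39, edgeR adjusted p = 0.969), and both intervals above include 1 as well as changes of several-fold.

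**Figure D2:**
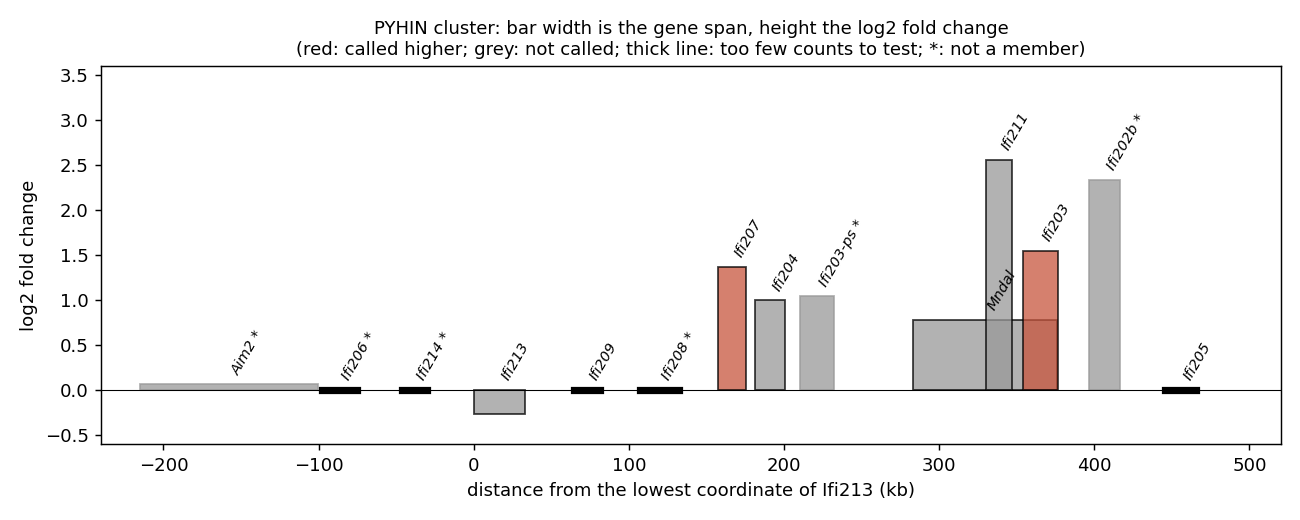
The PYHIN cluster along chromosome 1, as distance in kb from the lowest coordinate of Ifi213, with the log2 fold change of each tested gene as bar height and its span as bar width. The called members (red) are Ifi207 and Ifi203; genes too sparse to test are black lines at 0, and Mndal spans Ifi211 and overlaps Ifi203.

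Copies in the cluster can take each other's reads, which limits what single members show. Transcript annotation (GENCODE vM21) gave all 8 the coordinates of the deposited table. Mndal and Ifi203 shared 37 exonic bases, and no other pair of members overlapped in exons. Of all 50-base stretches of Ifi211 transcripts, 72.8% also occurred in transcripts of another gene, chiefly Ifi205 (44.7%), so the counts of Ifi211 are uncertain. The shares were 33.7% for Ifi209, 20.02% for Ifi204 (14.8% with Ifi211), 19.6% for Mndal, 18.6% for Ifi205, 15.6% for Ifi213, 12.4% for Ifi203 and 7.29% for Ifi207. Over 100 bases they fell to 2.84% for Ifi203 and 0.79% for Ifi207, the members that rose, were 10.7% for Ifi204 and stayed at 56.9% for Ifi211. Read length and the handling of reads that fit several genes were not given in the sources used here.

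A sum over the 8 members does not depend on how reads were divided among these 8. It can depend on reads shared with genes outside them, such as Ifi214 for Ifi209 (33.35% of its 50-base stretches). It can also depend on how reads that fit several genes were handled. Summed levels were 121.5, 74.9 and 70.6 CPM in control against 174.3, 216.4 and 179.0 CPM with the label. The groups did not overlap, and control replicate 1 was again the highest control. Means of 89.0 ± 28.2 and 189.9 ± 23.0 CPM (SD, n = 3 each) gave a ratio of 2.13, a log2 value of 1.09, for which no test was made. Leaving out 1 library moved it between 0.94, with control replicate 3 removed, and 1.38, with control replicate 1 removed. The overlapping pair Mndal and Ifi203 alone gave 50.3 ± 18.1 and 110.3 ± 17.6 CPM, a ratio of 2.19. The other 6 members gave 38.7 ± 10.1 and 79.6 ± 5.77 CPM, a ratio of 2.06. All 14 PYHIN genes found in the table, Aim2 among them, gave 145.2 ± 39.9 and 259.1 ± 24.9 CPM. That is a ratio of 1.78, a log2 value of 0.84.

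**Figure D3:**
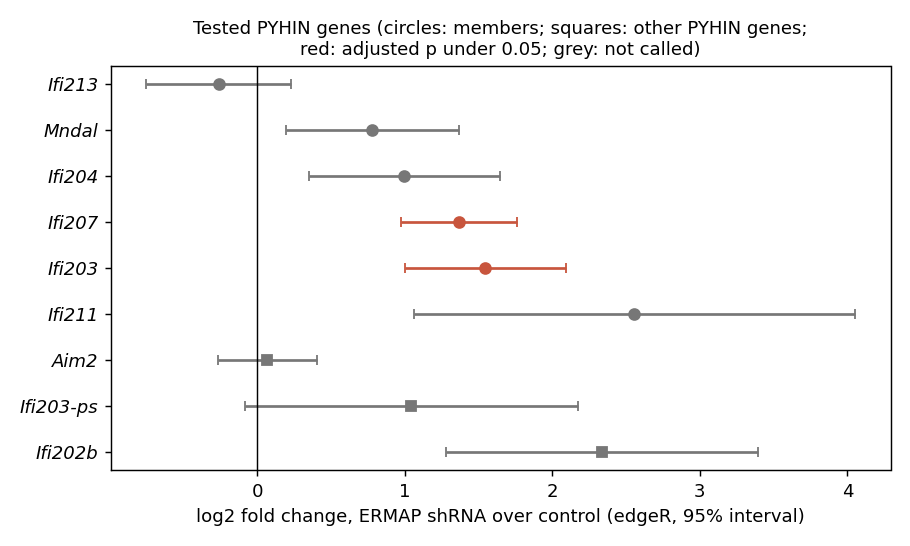
Log2 fold change (ERMAP shRNA over control) with its 95% interval from edgeR for the 6 tested p200 members (circles) and 3 other tested PYHIN genes (squares). Ifi207 at 1.36 and Ifi203 at 1.54 are called (red). The interval of Ifi211 is the widest among members, and those of Ifi213, Aim2 and Ifi203-ps include 0.

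Compared per length, the order of the leading members changed between groups. In deposited FPKM (fragments scaled to gene length and library size), control means were 8.23 ± 3.04 for Mndal, 6.52 ± 1.51 for Ifi207 and 2.97 ± 1.01 for Ifi203. Ifi204 at 1.58 ± 0.577 and Ifi213 at 1.45 ± 0.390 followed (SD, n = 3). Mndal and Ifi207 did not differ beyond their spread, nor did Ifi204 and Ifi213. Ifi211, Ifi209 and Ifi205 stood at 0.149, 0.0377 and 0.0212. In the labelled libraries Ifi207 led with 16.8 ± 1.17, ahead of Mndal at 14.2 ± 2.54, also within their spread, and Ifi203 followed at 8.69 ± 1.31, Ifi204 at 3.16 ± 0.522 and Ifi213 at 1.21 ± 0.0891 (SD, n = 3). Library by library, Mndal exceeded Ifi207 in all 3 controls (11.7 against 8.26, 6.47 against 5.50 and 6.49 against 5.81 FPKM). In all 3 labelled libraries Ifi207 exceeded Mndal (15.6 against 13.1, 18.0 against 17.0 and 17.0 against 12.3 FPKM).

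The makeup of the family differed between groups as well. Ifi203 made up 14.1% ± 0.436 of the summed FPKM in control and 19.2% ± 0.694 in the labelled group (SD, n = 3). Ifi213 made up 6.57% to 7.72% in the controls and 2.57% to 2.88% in the labelled libraries, while its own CPM level stayed within the control range. Mndal made up 38.9% ± 2.11 and 31.3% ± 2.42, and Ifi207 31.6% ± 2.84 and 37.5% ± 2.18 (SD, n = 3). The groups did not overlap in the shares of these 4 genes. Nor did they in the share of Ifi211, at 0.382% to 1.07% in control and 1.09% to 3.29% in the labelled libraries, on few counts. Shares of 1 total are not independent of each other, and none was tested.

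**Figure D4:**
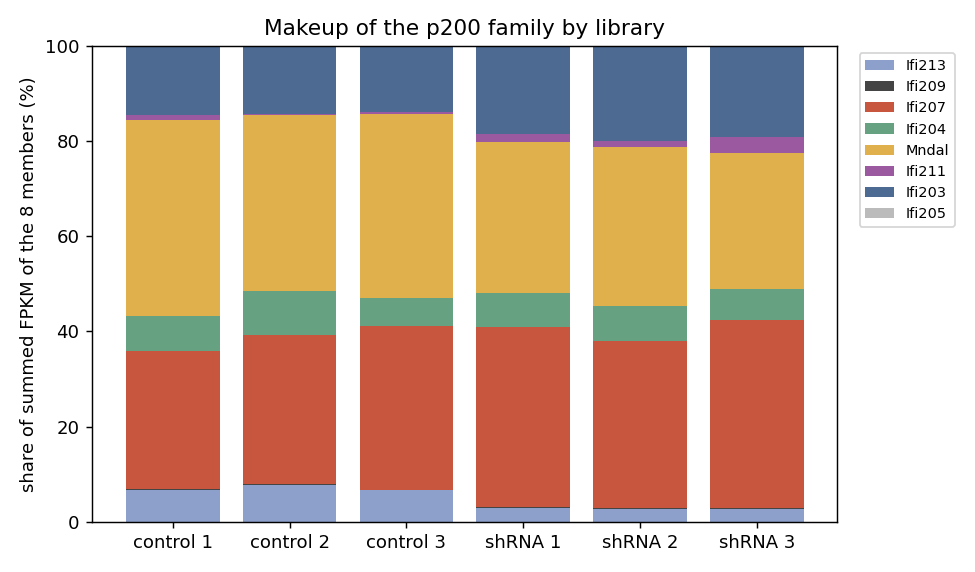
Share of the summed FPKM of the 8 members held by each member (stacked, percent) in each library. The band of Ifi203 widens from 14.1% in control to 19.2% in the labelled group on average, that of Ifi213 narrows, and Ifi209 and Ifi205 are too thin to see.

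The remaining genes of the cluster were mixed as well. Of 6 further PYHIN genes found in the table, 3 were tested and 0 were called by edgeR, against 1.14% of all tested genes. By unadjusted p under 0.05, 1 of the 3 was higher and 0 lower, against 3.71% and 3.04% of all tested genes. The median log2 fold change of the 3 was 1.04, against 1.18 for the 6 tested members and -0.01 for all tested genes. Ifi202b, a p200 gene without a pyrin domain, had 66, 24 and 16 control counts and 168, 184 and 159 labelled counts, and none of its 50-base stretches occurred in another gene's transcripts. Its log2 fold change was 2.34 (SE 0.46, edgeR adjusted p = 0.0712), while DESeq2 called it (2.33, adjusted p = 2.07e-05) and edgeR did without control replicate 1 (3.21). Aim2 read 52.6 ± 10.1 CPM in control against 55.0 ± 2.11 CPM with the label (SD, n = 3), a log2 value of 0.07 (95% interval -0.27 to 0.40), which turned to -0.065 without control replicate 2. Ifi203-ps, a pseudogene, had 49 and 96 summed counts (log2 1.04, edgeR adjusted p = 0.794; called without control replicate 1, at 1.80). Ifi206 had 6 and 0 counts, Ifi208 0 and 5, and Ifi214 1 and 1. The listed names Pydc3 and Pydc4 are RefSeq synonyms of Ifi208 and Ifi213.

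Around the cluster there was little expression. Within 500000 bases on both sides of the members lay 42 genes outside the family, many of them olfactory receptors, and 38 of these had 0 counts in all 6 libraries. One, the pseudogene Gm18445, could be tested, with 51 and 26 summed counts (log2 -0.88, edgeR adjusted p = 0.918).

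Genes that carry the interferon signal rose in part. Of 14 listed, 12 were tested, 4 were called higher and 0 lower, where 1.01% of all tested genes were called higher and 0.136% lower. The median log2 fold change was 0.55, against -0.01 for all tested genes. Irf7, a transcription factor that amplifies interferon production, rose from 4.72 ± 2.23 to 128.1 ± 8.51 CPM. Irf9, the DNA-binding part of the interferon-activated complex, rose from 17.5 ± 1.28 to 70.8 ± 3.18 CPM and Stat2, of the same complex, from 27.7 ± 2.23 to 44.7 ± 1.86 CPM. Usp18, which restrains the interferon receptor, rose from 3.63 ± 0.948 to 74.5 ± 9.44 CPM (SD, n = 3). Stat2 lost its call without control replicate 3 or any labelled replicate (edgeR adjusted p from 0.13 to 0.212) and with the replicate block (edgeR adjusted p = 0.179). The receptor chains Ifnar1 and Ifnar2 had log2 values of 0.00 and 0.07. Interferon beta (Ifnb1) had 0 control counts and 7 labelled counts, and Ifna4 had 0 in all. The receptor chains and the ligands are named after their values were seen.

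Cytosolic DNA sensing is the process several p200 proteins are known for. Of 22 listed genes, 19 were tested, 1 was called higher and 0 lower, against 1.01% and 0.136% of all tested genes. By unadjusted p under 0.05, 5 were higher and 0 lower, against 3.71% and 3.04% of all tested genes. The median log2 fold change of the list was 0.05. The called gene was Zbp1, a sensor of Z-form nucleic acids, at 0.146 ± 0.151 CPM in control against 2.51 ± 0.444 CPM with the label (SD, n = 3, log2 3.98, SE 0.58, edgeR adjusted p = 0.0183). It rests on 7 control counts, and lost its call with the replicate block (edgeR adjusted p = 0.0601) and without any 1 labelled replicate (0.0867 to 0.114). Without control replicate 1, where 2.67% of tested genes were called higher, 4 of the list were: Zbp1, Mb21d1 (the DNA sensor cGAS), Tmem173 (Sting) and Samhd1. With all 6 libraries Mb21d1 and Tmem173 had log2 values of 0.43 and 0.46 (edgeR adjusted p = 0.0738 and 0.223). Pycard, the adaptor through which Aim2 recruits caspase-1, had 13 and 8 summed counts and did not pass the filter. Mb21d1, Tmem173, Samhd1 and Pycard are named after their values were seen.

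Among 15 cell cycle and transcription factor genes whose products p200 proteins are known or reported to bind or act on, edgeR called 0 (3 higher, 0 lower by unadjusted p under 0.05). Of all tested genes, 1.01% were called higher and 0.136% lower, and by unadjusted p under 0.05 the shares were 3.71% and 3.04%. The median log2 fold change of the 15 was 0.14. Trp53, the most abundant of the 15 per length, read 206.6 ± 27.9 and 236.1 ± 14.0 CPM (SD, n = 3, log2 0.19, edgeR adjusted p = 0.924). The 3 with a low unadjusted p were Id1, Id2 and Id3, inhibitors of basic helix-loop-helix factors, at log2 values of 1.16, 0.54 and 1.14 (edgeR adjusted p from 0.327 to 0.645), named after their values were seen. DESeq2, which called 1.62% of tested genes higher, called Id3 only. Without control replicate 1, where 2.67% were called higher, edgeR called Id2 and Id3.

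The motif in the member promoters can be set beside the calls. Of tested genes with a promoter entry, the core stood in 32 of 96 genes called higher (33.3%) and in 316 of 8861 others (3.57%). The letters GAAATCGAAA were taken from the promoter of Ifi207, a called member, so Ifi207 enters the next count by that choice. Ifi203 is a called member of the same family. Of the 16 genes with GAAATCGAAA, 9 were tested and 3 were called higher, against 1.01% of all tested genes. Because of how the letters were chosen, this comparison carries no evidence. The 3 were Ifi203, Ifi207 and Ddx58, the RNA sensor RIG-I, at a log2 value of 3.07. The other 6 tested genes with these 10 bases, Mndal, Ifi213, Parp11, Pnrc1, Ripk1 and Serpinb6a, were not called, at log2 values from -0.34 to 0.78. These counts describe letters in the promoters of genes whose values were already known, and no test was made.

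The genes whose profile over the 6 libraries lay closest to the mean profile of Ifi203 and Ifi207 were Tlr3, Gm43197, Hpgd, Csprs and Gm20559. Closeness was the root mean square difference of log2 CPM, each gene taken relative to its own control mean, and ran from 0.12 for Tlr3 to 0.19 for Gm20559. Because the genes were picked for this closeness, a rise of similar size and a high control replicate 1 follow from the choice. The values below describe the genes and add no separate evidence. Tlr3, a sensor of double-stranded RNA, read 3.32, 1.81 and 2.05 CPM in control against 6.28, 6.32 and 6.92 CPM with the label, with control replicate 1 the highest control, as in each of the 6 tested p200 members. Its log2 fold change was 1.45 (SE 0.25, edgeR adjusted p = 0.045), and leaving out control replicate 2 or 3 or labelled replicate 1, 2 or 3 ended that call (adjusted p from 0.146 to 0.236), as did the replicate block (0.131). Hpgd, which breaks down prostaglandins, had 1.53 (edgeR adjusted p = 0.0183), not called with the replicate block (0.051) or without control replicate 3 (0.123) or labelled replicate 1, 2 or 3 (0.0875 to 0.113). Gm43197 had 1.52 (edgeR adjusted p = 0.00616), not called without labelled replicate 3 (0.052). Gm20559 had 1.28 (edgeR adjusted p = 0.0155), not called with the replicate block (0.0585) or on leaving out any 1 library but control replicate 1 (0.0716 to 0.11). Csprs was not called.

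The count of called members varied with the libraries used. Without control replicate 1, edgeR called 5 of the 6 tested members higher (Ifi203, Ifi204, Ifi207, Ifi211 and Mndal) and 0 lower, where 2.67% of tested genes were called higher. With offsets for GC content in each library, a setting chosen after the data were seen, the same 5 were called, against 2.17%. Leaving out any other single library left 0 or 1 member called: Ifi207 without control replicate 2 or labelled replicate 1, and 0 without control replicate 3 or labelled replicate 2 or 3. The share of all tested genes called higher was then 0.752% (control replicate 2), 0.706% (control replicate 3) and 0.617%, 0.598% and 0.571% (labelled replicates 1, 2 and 3). Without a filter on low counts Ifi211 joined Ifi203 and Ifi207, against 0.698% of genes. Ifi207 alone was called on log2(FPKM + 1) without a filter, against 0.358%, and with column numbers as a block, against 0.648%. Ifi213 was not called in any setting and stayed below 0 in each.

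**Figure D5:**
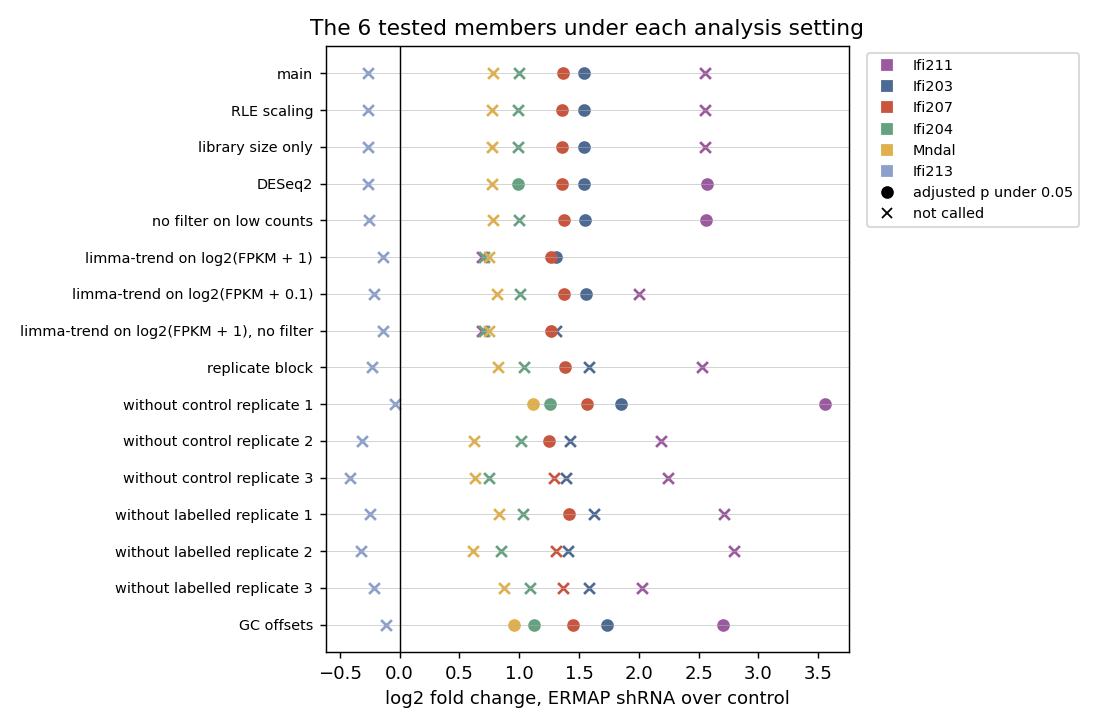
Log2 fold change of the 6 tested members (colours) under the main analysis and each alternative, with circles for an adjusted p under 0.05 and crosses otherwise. Without control replicate 1 and with GC offsets 5 members are circles, while Ifi213 stays left of 0 and uncalled in each row.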

How the data were processed

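RNA was measured in 6 libraries, 3 per group. Gene-level read counts were deposited as whole numbers. The submitters' processing notes name HISAT2 and mm10, while counting program, strand setting and versions were not given in the sources used here. FPKM was deposited by the authors for each library, with a group mean. FPKM is the count divided by gene length and 1 constant per library. Column numbers were used as replicate numbers, since columns could be tied to groups but not to single samples.

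Counts were tested with edgeR 4.0.16 (limma 3.58.1, R 4.3.3): TMM factors, filterByExpr (minimum count 10), robust quasi-likelihood fit, Benjamini-Hochberg adjustment over all genes tested. SE and intervals come from the same fit. The test was tested on simulated data. Alternatives were other scaling, DESeq2 1.42.0, no filter, limma-trend on log2(FPKM + 1) or log2(FPKM + 0.1), column numbers as a replicate block, and each library left out in turn. GC offsets, and all alternatives for the genes around the cluster, were added after the data were seen. GC content and shared stretches come from GENCODE vM21 transcripts, which are also reference sequence and were not compared with the cells.

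The members and lists were chosen with earlier results of these data known. Named genes are the 8 members, the other PYHIN genes, called list genes or else the most abundant tested one, the 5 closest profiles (log2 CPM with a prior count of 2) and Ermap. Others are marked where named. One gene of the interferon signalling list is not reported here.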

Additional observations from a re-analysis of the deposited data

How the results depend on the processing

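Against 2 members called higher, DESeq2 gave 4, limma-trend on log2(FPKM + 1) without a filter 1, the replicate block 1, GC offsets 5 and leaving out 1 library 0 to 5 (5 without control replicate 1). No filter on low counts gave 3, adding Ifi211, and 0 were lower in every setting. Adjusted p fell under 0.05 for Ifi204 in DESeq2 (log2 0.99) and with GC offsets (1.13), and for Mndal with GC offsets (0.96). For Ifi211 it did so in DESeq2 (log2 2.57), without a filter (2.56) and with GC offsets (2.70). Ifi203 fell short on log2(FPKM + 1) without a filter (1.31, adjusted p = 0.11) and with the replicate block (1.58, adjusted p = 0.0699), while Ifi207 stayed called with the block (edgeR adjusted p = 0.044). Leaving out 1 library gave 1.25 to 1.57 for Ifi207, 1.39 to 1.85 for Ifi203, 0.62 to 1.12 for Mndal, 0.75 to 1.26 for Ifi204 and 2.03 to 3.56 for Ifi211. Aim2 reversed, to -0.065, without control replicate 2, within a range of -0.065 to 0.21. The summed family moved by less than its spread among libraries within groups in all settings. Leaving out 1 of 3 libraries can hardly move a mean by more, so this does not speak of stability. Other PYHIN genes went from 0 higher to 1 in DESeq2, without a filter, on log2(FPKM + 1) and with GC offsets, and to 0 to 2 on leaving out a library. DNA sensing went from 1 to 3 in DESeq2, 4 with GC offsets, 0 on log2(FPKM + 1) without a filter and with the block, and 0 to 4 on leaving out a library. Interferon signalling went from 4 to 6 in DESeq2, without a filter and with GC offsets. It went to 3 on log2(FPKM + 1) without a filter and with the block, and to 3 to 6 on leaving out a library. Cell cycle partners went from 0 to 1 in DESeq2, 2 with GC offsets and 0 to 2 on leaving out a library. Over the whole table, 126 higher and 17 lower became 202 and 71 in DESeq2, 158 and 32 without a filter, 81 and 5 on log2(FPKM + 1) without a filter, 81 and 3 with the block, 271 and 144 with GC offsets, and 73 to 342 and 3 to 280 on leaving out a library. The cause was not tested. No pairing by column number was seen: deviations of same-numbered libraries correlated at -0.13, -0.28 and 0.18 across 12491 genes. Libraries of unlike number correlated at -0.25 to 0.34. Deviations within a group are tied to each other, so these values cannot settle whether libraries were paired. Depth limits Ifi209, Ifi205 and Ifi211, and sequence shared between copies limits Ifi211.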
